A study of Mus musculus with 24 samples.

Results

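Fat tissue was followed through 10 marker genes in 4 tissues of Rap1 knockin and wild-type mice. 7 of them mark white fat (Adipoq, Lep, Retn, Cfd, Plin1, Cidec and Fabp4) and 3 mark brown fat (Ucp1, Cidea and Elovl3). They were taken by gene name, with earlier results of these data known, and are 10 of the 21368 genes that could be named on the array. Retn and Cidec each had 2 probes, so that 12 probes in all stood for the 10 genes. The arrays were 1-colour Agilent mouse arrays of liver, brain, heart and skeletal muscle RNA from 6 female mice, each of which gave all 4 tissues. Mice A, B and C carried the Rap1 I312R point mutation (KI, in the gene Terf2ip), made with CRISPR/Cas9 in the germ line and therefore present in every cell, and mice D, E and F were wild-type (WT) littermates. Both genotypes came from the same backcross to C57BL6 mice (C57BL/6N in the study's methods). The mice were 15 months old, except for 1 of each genotype (C and F), which were 14 months old. RNA of liver and brain was purified with one kit and RNA of heart and muscle with another made for fibrous tissue, so that kit and tissue cannot be told apart.

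White adipocytes store triglyceride in a single large lipid droplet and secrete hormones, the adipokines, into the blood. Brown adipocytes hold many small droplets and burn fat for heat through UCP1, a protein that lets protons leak across the inner mitochondrial membrane. Fat cells lie around the atria and great vessels of the heart and between and within skeletal muscles, and a dissected piece of either organ can carry some of them. Several genes named after fat are also used elsewhere: FABP4 is made by capillary endothelium and macrophages, and CIDEC and ELOVL3 by hepatocytes.

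Promoter sequence is shown for the members whose levels turned out to move together or apart. Promoters of 7 of the 10 members were read from the RefSeq promoter table (build GRCm38.p6), in a search that left out the entries of a chromosome. The 250 bases before the start are printed 5′ to 3′ for Adipoq (chr16:23146286-23146535, + strand), Plin1 (chr7:79732777-79733026, - strand), Cidec (chr6:113435761-113436010, - strand, the more upstream of its 2 starts) and Cfd (chr10:79890603-79890852, + strand), the white markers whose levels moved together in heart and muscle, and for Ucp1 (chr8:83290098-83290347, + strand), which did not move with them. Capitals mark matches, on either strand, to the CCAAT box (CCAAT), a short nuclear receptor site (AGGTCA) or the core bound by C/EBP factors (TTNCNNAA). The TATA box (TATAAA) was searched as well.
Adipoq: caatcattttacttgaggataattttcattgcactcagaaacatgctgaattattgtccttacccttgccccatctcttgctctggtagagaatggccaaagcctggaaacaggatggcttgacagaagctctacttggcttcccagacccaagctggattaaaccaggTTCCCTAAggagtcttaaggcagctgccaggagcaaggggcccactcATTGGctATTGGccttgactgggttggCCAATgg
Plin1: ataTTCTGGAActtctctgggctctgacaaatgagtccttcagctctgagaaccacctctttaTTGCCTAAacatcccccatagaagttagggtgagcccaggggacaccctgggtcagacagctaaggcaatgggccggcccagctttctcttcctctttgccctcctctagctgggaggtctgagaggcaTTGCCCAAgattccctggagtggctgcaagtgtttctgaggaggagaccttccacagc
Cidec: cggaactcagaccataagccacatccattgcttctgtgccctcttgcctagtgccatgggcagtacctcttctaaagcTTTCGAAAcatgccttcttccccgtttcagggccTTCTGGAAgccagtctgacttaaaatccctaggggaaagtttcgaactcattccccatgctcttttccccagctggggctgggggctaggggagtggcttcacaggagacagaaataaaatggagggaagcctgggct
Cfd: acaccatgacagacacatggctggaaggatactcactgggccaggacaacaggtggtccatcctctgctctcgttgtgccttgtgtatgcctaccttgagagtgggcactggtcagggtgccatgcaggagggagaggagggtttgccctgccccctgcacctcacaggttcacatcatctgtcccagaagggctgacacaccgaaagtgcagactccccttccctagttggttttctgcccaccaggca
Ucp1: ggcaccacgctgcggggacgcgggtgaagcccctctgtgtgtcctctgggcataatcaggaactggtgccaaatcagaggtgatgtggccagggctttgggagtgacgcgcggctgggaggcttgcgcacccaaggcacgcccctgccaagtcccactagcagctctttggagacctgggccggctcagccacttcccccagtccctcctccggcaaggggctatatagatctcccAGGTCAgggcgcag

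Adipoq held 3 CCAAT boxes, beginning 34, 27 and 7 bases before the start, and 1 C/EBP core. Plin1 held 3 C/EBP cores and this start of Cidec held 2. Cfd had no match to any of the 4 motifs, and the only match in Ucp1 was 1 short nuclear receptor site 14 bases before the start. None of the matches shown overlapped another, and the TATA box letters were found in none of the 5 windows. Of all 32851 promoters in the table, 33.8% held the CCAAT box, 14.0% the short nuclear receptor site, 36.8% the C/EBP core and 12.4% the TATA box in a window of the same length. The matches describe letters and not binding.

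Levels are log2 processed signals relative to the 75th percentile of their array, so that a level of 0 equals that percentile and a difference of 1 is a 2-fold difference in signal. They compare the same probe between arrays and are not compared between genes. A probe is called well above background where the scanner program marked it so. Arrays of the same tissue correlated across genes at 0.960 to 0.991. Terf2ip, the mutated gene, did not pass the threshold between genotypes in any tissue (limma, adjusted p = 0.52 in liver, 0.97 in heart and 1.00 in brain and muscle). Its levels ran from 0.14 to 1.47 over the 24 arrays and do not show the point mutation. The tissues carried their own markers, with mean levels of 8.35 to 9.19 for 11 hepatocyte genes in liver, 5.23 to 5.54 for 8 neuronal genes in brain, 7.78 to 8.11 for 8 ventricular genes in heart and 7.93 to 8.45 for 11 skeletal muscle genes in muscle. In 3 arrays genes of another tissue stood out. The brain of KI mouse C had a hepatocyte mean of 4.49, the remaining brains reaching at most -1.05, the liver of KI mouse C had a skeletal muscle mean of 0.71 against at most -4.38, and the muscle of KI mouse B had a mean of -0.39 over 20 mammary epithelium genes against at most -3.89.

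The fat markers differed widely between tissues. The mean level was highest in muscle for 7 of the 10, in heart for Fabp4 and Cidea, and in liver for Elovl3. All 6 muscles had 8 of the 10 members well above background, against 7 members in all 6 hearts, 4 in all 6 livers and 3 in all 6 brains. Retn and Fabp4 were measured on all 24 arrays. Heart and muscle together were above liver and brain together by 4.69 ± 0.42 (SE, log2) for Retn and 8.85 ± 0.19 for Fabp4 (limma over all 24 arrays, adjusted p = 5.0e-09 and 5.7e-18). For the others some or all liver and brain arrays were not well above background, so that a measured difference has only a bound. Adipoq was at least 799-fold higher in muscle and at least 32.2-fold higher in heart than in brain, the brains being set at the dimmest level that each array measured well above background. Plin1 was in muscle at least 110-fold and in heart at least 4.99-fold higher than in liver, and Elovl3 in liver at least 17.6-fold higher than in heart. By the test 8 of 9 members were higher in heart and muscle, where 43.6% of all 17296 genes tested were. The count is given as a description, since some members entered the test only through tissues where they are high. These were Lep through muscle, and Adipoq, Cfd and Plin1 through heart and muscle. Elovl3 entered only through liver. Ucp1 was well above background on no complete group of 3 arrays and was not tested.

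**Figure D1:**
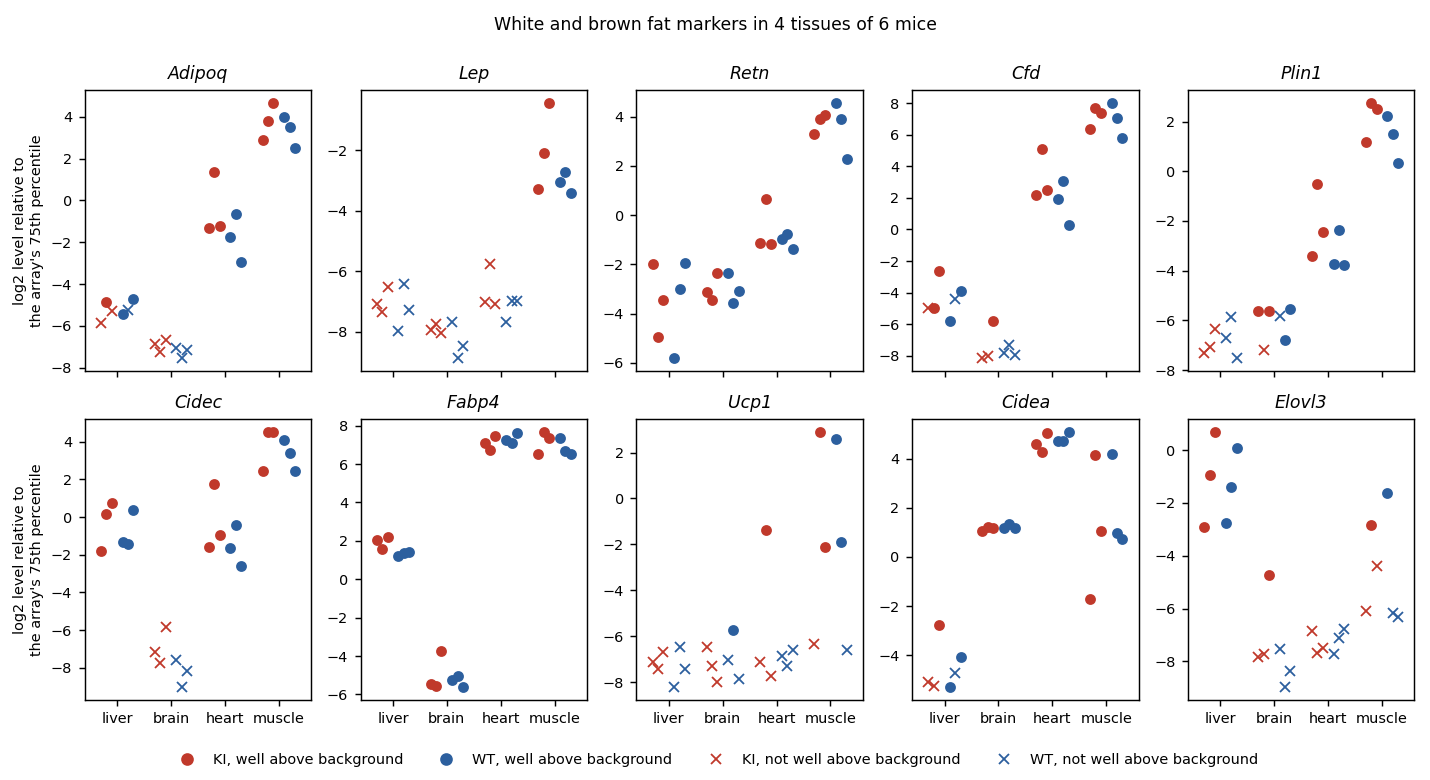
Level of each of the 10 fat markers (log2 signal relative to the array's 75th percentile) by tissue, 1 point per array, 3 KI (red) and 3 WT (blue) mice in each tissue; crosses are arrays where the probe was not well above background. Adipoq, Retn, Cfd, Plin1 and Cidec are highest in muscle, Fabp4 is about as high in heart as in muscle, Cidea is highest in heart, and Ucp1 is above background on 6 of the 24 arrays.

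Between heart and muscle the white markers fell into 2 kinds. Adipoq (adiponectin, an insulin-sensitizing hormone), Cfd (adipsin, a complement protease), Retn (resistin), Plin1 (perilipin, which coats the fat droplet) and Cidec (which fuses droplets) were each between 22.0- and 24.8-fold higher in muscle. As heart minus muscle on the log2 scale these differences were -4.63 ± 0.46 (SE) for Adipoq, -4.54 ± 0.63 for Cfd, -4.49 ± 0.63 for Cidec, -4.47 ± 0.60 for Retn and -4.46 ± 0.50 for Plin1, and the highest of their adjusted p-values was 5.6e-06 (limma). Lep (leptin) was well above background in all 6 muscles and in no heart, which makes it at least 7.15-fold higher in muscle, with each heart set as the brains were for Adipoq. Fabp4, the fatty acid carrier of the adipocyte cytosol, did not follow them. It differed by 0.19 ± 0.28 (adjusted p = 0.56), although quantile normalization gave 0.56 with an adjusted p of 0.040.

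The lower heart levels held in each of the 6 mice for these 5 genes. For Adipoq heart minus muscle of the same mouse ran from -5.88 to -2.41 on the log2 scale, for Cfd from -6.12 to -2.59 and for Cidec from -5.76 to -2.78. The smallest gap belonged to KI mouse B for Adipoq, Cfd and Cidec. Hearts of mice C and F shared a slide with the muscles, and there Adipoq differed by -5.88 and -5.42. Over the 7 members measured on all 12 arrays, 5 were lower in heart at an adjusted p under 0.05, where 38.7% of the 12725 genes measured on all 12 arrays were. Over all genes tested 35.4% were lower in heart. Cidea, a droplet protein of brown adipocytes, was the 1 that was higher, at 3.18 ± 0.74 (SE, adjusted p = 0.0010). Its heart minus muscle of the same mouse was only 0.14 in KI mouse B and 0.54 in WT mouse D, and reached 6.31 in KI mouse A.

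Within heart, 5 white markers were highest in the same mouse. Adipoq had levels of -1.31, 1.38 and -1.23 in KI mice A, B and C and of -1.73, -0.63 and -2.94 in WT mice D, E and F. Cfd had 2.18, 5.08 and 2.48 in KI and 1.90, 3.09 and 0.29 in WT hearts. Cidec had -1.61, 1.76 and -0.93 in KI and -1.65, -0.42 and -2.58 in WT hearts. All of these were highest in KI mouse B, next highest in WT mouse E and lowest in WT mouse F, and the genotypes overlapped.

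Plin1 showed the same heart of KI mouse B at the top, with -3.42, -0.53 and -2.45 in KI and -3.72, -2.36 and -3.79 in WT hearts. Retn had -1.15, 0.65 and -1.19 in KI and -0.97, -0.77 and -1.36 in WT hearts. KI mouse B lay 4.03-fold above the next heart for Adipoq, 3.98-fold for Cfd, 4.53-fold for Cidec, 3.57-fold for Plin1 and 2.68-fold for Retn. The range over the 6 hearts was 27.7-fold for Cfd, 20.2-fold for Cidec and 19.9-fold for Adipoq, wider than that of 99.8%, 99.6% and 99.6% of the genes tested in heart. Without KI mouse B these ranges were 6.94-, 4.47- and 4.94-fold, and without WT mouse F 9.09-, 10.6- and 8.65-fold.

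Fabp4 and Cidea did not show this pattern in heart. Fabp4 had 7.12, 6.71 and 7.48 in KI and 7.24, 7.11 and 7.61 in WT hearts. Cidea had 4.60, 4.27 and 5.04 in KI and 4.74, 4.71 and 5.11 in WT hearts. Both were lowest in KI mouse B, where Adipoq was highest, and highest in WT mouse F, where Adipoq was lowest, and both ranged less than 2-fold (1.86-fold and 1.78-fold). The mean of 7 endothelial genes had the same ends, at 2.46 in KI mouse B and 2.84 in WT mouse F with the other hearts between 2.72 and 2.78, and its part in the Fabp4 level was not tested. Lep and Elovl3 were not well above background in any heart. Ucp1 was well above background only in the heart of KI mouse B, with a level of -1.36 that is at least 11.9- to 21.7-fold above each of the other 5 hearts.

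Atrial genes moved with the white markers across the hearts. The mean level of 5 genes of atrial myocardium (Myl7, Myl4, Sln, Nppa and Bmp10) was 6.99 in KI mouse B, 4.21 in WT mouse E, 0.83 in KI mouse C, -0.73 in WT mouse D, -0.87 in KI mouse A and -1.31 in WT mouse F, and all 5 genes were highest in KI mouse B. Myl7, the atrial myosin light chain, ranged from -3.26 in WT mouse F to 7.44 in KI mouse B. The ventricular genes ranged from 7.78 in KI mouse B to 8.11. KI mouse B was the highest heart for 12 of the 15 lists of other cell types or tissues, among them mesothelium (0.94, next 0.06), macrophages (0.49, next 0.04), fibroblasts (4.31, next 4.11), neurons (-1.74, next -2.58) and B cells (-1.81, next -2.86). In 4 of these 12, the atrial list included, WT mouse E came next as it did for the white markers. The part of these cells, or of the atrial share of a sample, in the marker levels was not tested. In whole tissue RNA, fewer fat cells and less marker RNA per fat cell cannot be told apart.

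**Figure D2:**
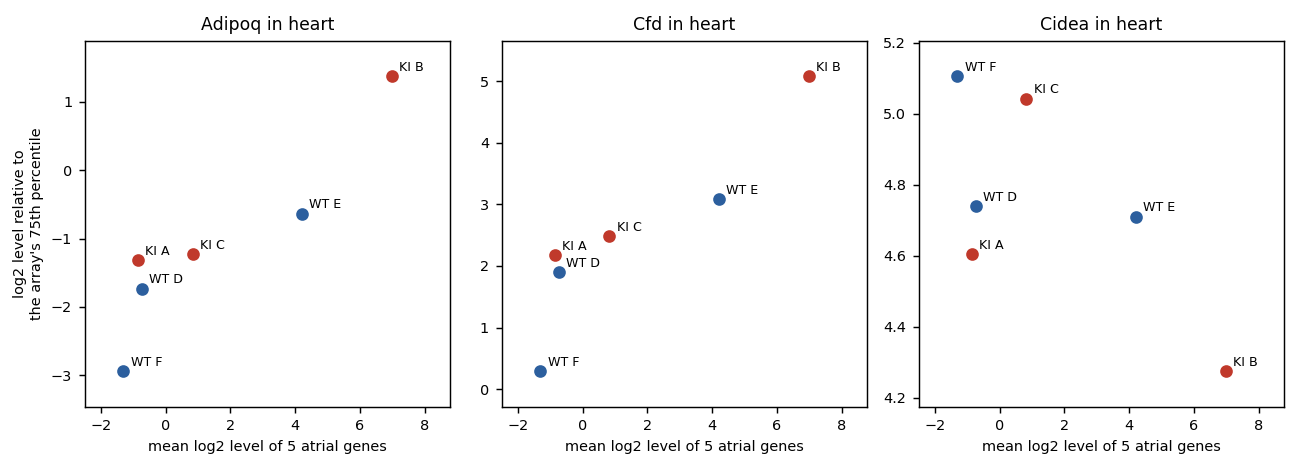
Level of Adipoq, Cfd and Cidea in the 6 hearts (vertical axis, log2 signal relative to the array's 75th percentile, a separate scale for each gene) against the mean level of 5 atrial genes in the same heart (horizontal axis, log2), KI in red and WT in blue. The heart of KI mouse B is at the far right at 6.99, where Adipoq (1.38) and Cfd (5.08) are at their highest and Cidea (4.27) at its lowest.

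The genotype comparison in heart asked whether Rap1 KI hearts carried more or less fat RNA. None of the 7 members tested passed the threshold, where 0% of the 14929 genes tested passed it and 244 had an unadjusted p under 0.05. The KI mean of Adipoq was -0.39 ± 1.53 (SD, n = 3) and the WT mean -1.77 ± 1.15 (SD, n = 3), a difference of 1.38 ± 0.85 (SE) with an adjusted p of 0.97 (limma). Cfd differed by 1.49 ± 0.95, Cidec by 1.29 ± 0.93, Plin1 by 1.16 ± 0.75 and Retn by 0.47 ± 0.49, with Fabp4 at -0.22 ± 0.23 and Cidea at -0.21 ± 0.22, all at an adjusted p of 0.97. The groups of none of the 7 members were without overlap, where those of 5.03% of all genes were. The median difference of the 7 members was 1.16 against -0.05 over all genes.

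Without the heart of KI mouse B the differences shrank to 0.50 for Adipoq, 0.57 for Cfd, 0.36 for Plin1 and 0.28 for Cidec, and that of Retn turned to -0.13. Without the heart of WT mouse F they were 0.80 for Adipoq and 0.75 for Cfd. On the slide with 2 hearts of each genotype (mice A, B, D and E) Adipoq differed by 1.22 and Cfd by 1.14, and on the slide with 1 of each (mice C and F) by 1.71 and 2.19. With the slide as a block the adjusted p-values were 0.88. The standard errors of Adipoq, Cfd and Cidec exceeded those of 99.3%, 99.5% and 99.5% of all genes tested in heart, whose median was 0.18.

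In skeletal muscle the white markers were bright in every mouse. Adipoq had levels of 2.89, 3.78 and 4.66 in KI mice A, B and C and of 3.99, 3.53 and 2.48 in WT mice D, E and F. Cfd had 6.36, 7.67 and 7.40 in KI and 8.02, 7.05 and 5.76 in WT muscles. Cidec had 2.45, 4.54 and 4.54 in KI and 4.12, 3.42 and 2.43 in WT muscles. WT mouse F was lowest for all of these and KI mouse A next lowest, while the highest mouse differed between genes.

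Plin1 had 1.17, 2.75 and 2.52 in KI and 2.24, 1.50 and 0.32 in WT muscles, and Retn had 3.28, 3.89 and 4.06 in KI and 4.56, 3.92 and 2.30 in WT muscles. Fabp4, which stood apart in heart, followed them here, with 6.55, 7.69 and 7.35 in KI and 7.33, 6.70 and 6.52 in WT muscles. Its correlation with the mean of the other 6 white markers over the 6 arrays of a tissue was 0.881 in muscle and -0.865 in heart, where the dim signal of Lep was included. For Cidec the same correlation was 0.968 in muscle and 0.996 in heart, and for Adipoq 0.955 and 0.978. These correlations describe 6 arrays each, in which 1 or 2 mice set most of the spread. The order of the mice was not the same in both tissues, since KI mouse B topped the hearts for 5 white markers and KI mouse C, KI mouse B or WT mouse D the muscles.

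Lep stood out in 1 muscle. It had levels of -3.27, -2.09 and -0.43 in KI and of -3.05, -2.71 and -3.42 in WT muscles, and KI mouse C lay 3.15-fold above the next. The 2 highest were KI mice, and KI mouse A lay between the WT mice. Leptin expression is known to rise with the size of fat cells. That size was not measured here, and its part in the Lep levels was not tested.

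**Figure D3:**
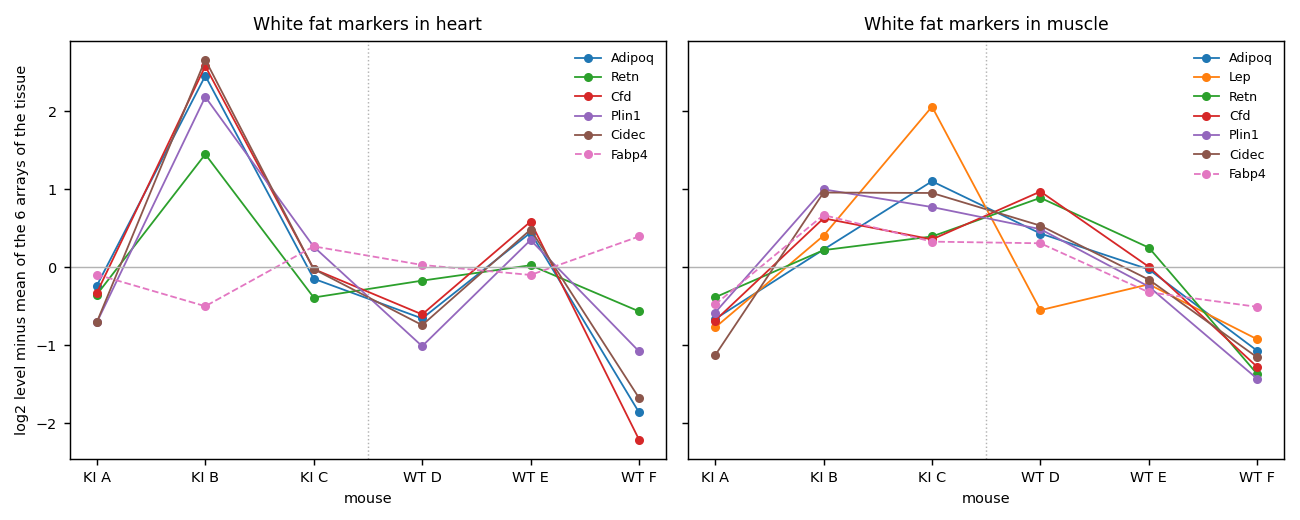
Level of each white fat marker in heart (left) and muscle (right) of each mouse, as log2 level minus the mean of the 6 arrays of that tissue; lines join the values of 1 gene, KI mice are left of the dotted line, and Lep is left out of heart, where it was not well above background. In heart 5 genes peak together in KI mouse B while Fabp4 (dashed) dips, and in muscle all 7 genes are low in KI mouse A and WT mouse F.

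No member differed between genotypes in muscle by the test. Of 8 members tested none passed the threshold, where 0% of 13515 genes did and 117 had an unadjusted p under 0.05, and no member's groups were without overlap, where those of 3.61% of all genes were. Lep differed by 1.13 ± 0.66 (SE), Plin1 by 0.79 ± 0.59, Cidec by 0.52 ± 0.67, Adipoq by 0.44 ± 0.54, Fabp4 by 0.35 ± 0.35, Cfd by 0.20 ± 0.60 and Retn by 0.15 ± 0.56, with an adjusted p of 1.00 for each (limma). Cidea differed by -0.82 ± 1.56. The median over the 8 members was 0.40 against 0.02 over all genes. Without KI mouse C the difference of Lep was 0.38 and that of Adipoq 0.0045, and without WT mouse F that of Adipoq was 0.02. The muscle of KI mouse B carried mammary epithelium genes, whose part was not tested. Without it the difference of Fabp4 was 0.10 and that of Cidea -2.31.

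Heart and muscle were also averaged within each mouse. The mean of both tissues per mouse differed between KI and WT by 0.98 ± 0.59 (SE) for Plin1, 0.91 ± 0.56 for Adipoq, 0.91 ± 0.71 for Cidec and 0.84 ± 0.70 for Cfd, with an adjusted p of 1.00 for each, and 0 of 7 members passed the threshold, as did 0% of 13245 genes. Leaving out KI mouse B brought these 4 differences to between 0.23 and 0.47, and leaving out WT mouse F to between 0.18 and 0.59. Whether the genotype difference itself differed between heart and muscle was tested as well. None of 7 members passed (0% of 13245 genes), and the value farthest from 0 was that of Cfd, at 1.28 ± 1.23.

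**Figure D4:**
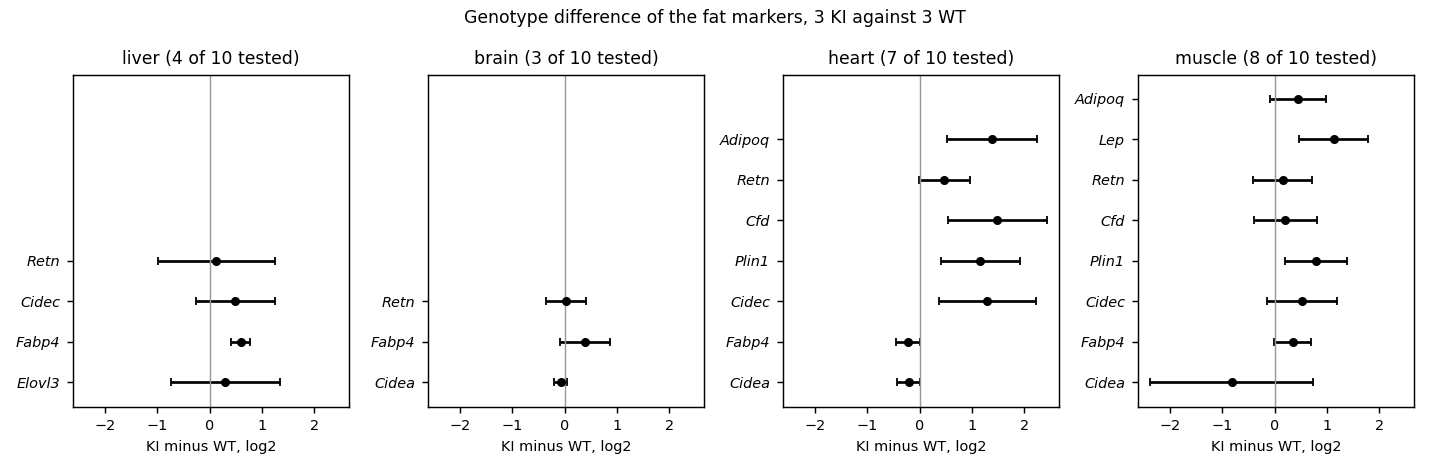
Difference between KI and WT means (horizontal axis, log2) of each member tested in liver, brain, heart and muscle, 3 mice per genotype; points are limma estimates and bars 1 SE on each side. The bars of Cidea in muscle (-0.82 ± 1.56) and of the white markers in heart are wide, and Fabp4 in liver (0.60 ± 0.18) is the member farthest from 0 relative to its error.

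The brown markers divided the muscles differently. Ucp1, the uncoupling protein, had levels of 2.92 in KI mouse B and 2.60 in WT mouse D, of -2.10 in KI mouse C and -1.89 in WT mouse E, and was not well above background in KI mouse A and WT mouse F. KI mouse B was at least 134-fold above KI mouse A and at least 152-fold above WT mouse F. Each genotype thus had 1 high, 1 intermediate and 1 dim muscle. Cidea had -1.71, 4.13 and 1.04 in KI and 4.20, 0.99 and 0.74 in WT muscles, with the same 2 mice at the top and a range of 60.1-fold, wider than that of 99.8% of the genes tested.

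Elovl3, an elongase of very long fatty acids, was well above background only in the muscles of KI mouse B (-2.83) and WT mouse D (-1.62), and WT mouse D was at least 5.63- to 6.55-fold above each of the other 4. The 3 brown markers therefore picked out the same 2 muscles. Adipoq in these, at 3.78 and 3.99, was below that of KI mouse C at 4.66, whose Ucp1 was -2.10. The muscle of KI mouse B also carried mammary epithelium genes, 18 of 20 of them well above background, whereas that of WT mouse D had 9 of 20, with 7 to 9 in the other 4 muscles. Casein Csn2, the milk protein, was at -1.19 in KI mouse B and not well above background in WT mouse D. The same 2 muscles were the highest for 6 of the 15 lists of other cell types or tissues, which were fibroblasts (4.71 in WT mouse D and 4.13 in KI mouse B, next 3.59), macrophages (-1.37 in B and -1.51 in D, next -1.66), B cells, tendon and cartilage, atrial myocardium and mammary epithelium. The part of these cells in the brown marker levels was not tested.

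**Figure D5:**
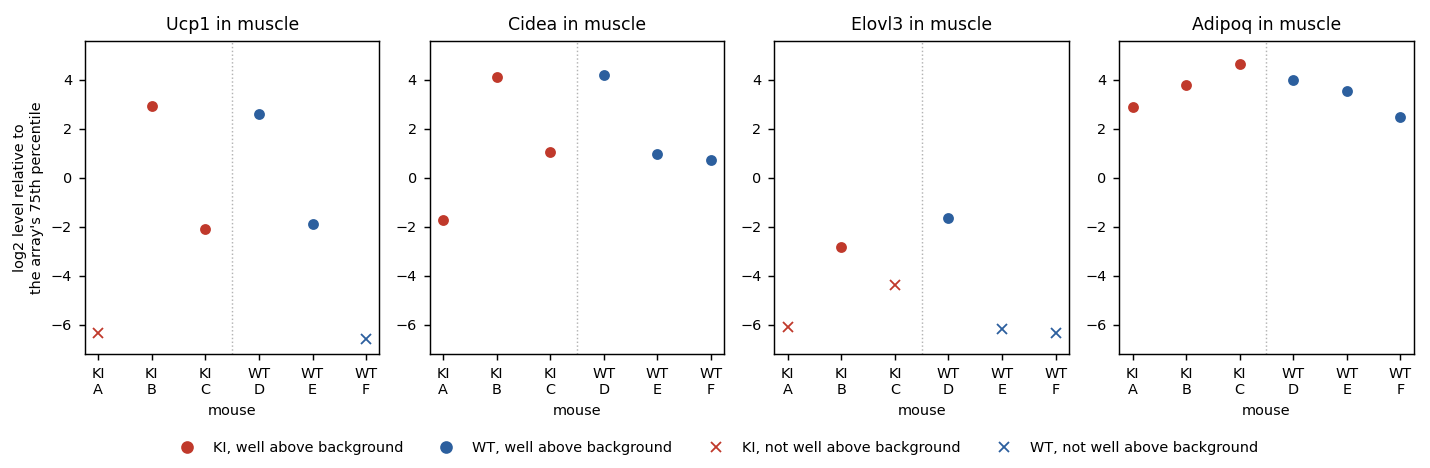
Levels of the brown markers Ucp1, Cidea and Elovl3 and of the white marker Adipoq in the muscle of each mouse (vertical axis, log2 signal relative to the array's 75th percentile), KI in red and WT in blue, with crosses where the probe was not well above background. KI mouse B and WT mouse D are highest for all 3 brown markers, and Adipoq is above 2.4 in all 6 muscles.

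Of 14 other genes of brown adipocytes, 5 had KI mouse B and WT mouse D as the 2 highest muscles. The share of all genes with these 2 muscles on top was not counted, so the 5 are a description. Dio2, which makes active thyroid hormone in brown fat, was highest in WT mouse D (0.83) and KI mouse B (-0.03), against -2.19 to -0.89 in the other 4. Slc27a2, a fatty acid transporter, was -2.18 in KI mouse B and -2.77 in WT mouse D, against -3.36 in WT mouse E, with the other 3 muscles not well above background. Kcnk3 (-1.75 in B and -2.34 in D), Acot11 (1.83 and 1.59) and Gk (-3.29 and -3.10) were the others. Cox7a1 and Cox8b, subunits of cytochrome c oxidase that muscle itself uses, did not set these mice apart, at 8.35 to 8.62 and 8.54 to 8.63. Zic1 was highest in WT mouse E (0.14) and KI mouse A (-0.17). Prdm16 was highest in KI mouse B (-0.89), but WT mouse D, at -1.47, lay among the other 4 muscles (-1.57 to -1.22). Lhx8 was not well above background in any muscle. Of the 14 genes of this list, 12 were tested in muscle and none passed the genotype threshold, with a median difference of 0.13 against 0.02 over all genes. In heart 12 were tested with the same outcome and a median of -0.02 against -0.05. The values farthest from 0 in heart were those of Dio2 (0.83 ± 0.48) and Otop1 (0.65 ± 0.80).

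The wider list of 24 white adipocyte genes held many that heart and muscle use themselves. In heart 23 were tested and none passed the threshold, with 12 above 0 and a median of 0.01 against -0.05 over all genes. The largest differences were those of Adrb3 (the fat cell's adrenergic receptor, 1.66 ± 1.05), Ccdc3 (1.51 ± 0.69), Car3 (1.38 ± 0.88) and Pck1 (1.28 ± 1.05), and 10 of the 24 genes were highest in KI mouse B. In muscle 23 were tested, none passed, and 17 were above 0, with a median of 0.13 against 0.02. Ccdc3 (-1.15 ± 0.38), Adrb3 (0.74 ± 0.69), Acvr1c (0.69 ± 0.55) and Mest (0.55 ± 0.47) were farthest from 0. Lpl and Slc2a4, lipase and glucose transporter of fat and of muscle alike, were lowest in the heart of KI mouse B, at 7.56 and 6.29.

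The genes most like the white markers were looked for among 16077 genes, by the correlation of their deviations from the tissue mean with those of the 7 markers over the 12 heart and muscle arrays. The 10 highest were Pck1 (0.961), Alcam (0.946), Ugt1a6b (0.945), Ces1f (0.944), Hp (0.943), Rbp4 (0.942), Tmem45b (0.939), Cdo1 (0.936), Glb1l2 (0.935) and Adrb3 (0.930). Pck1, which makes the glycerol backbone of stored fat, had levels of -3.00, 1.03, -2.29, -3.42, -1.57 and -3.10 in the hearts of A to F. In the muscles of A to F it had 0.70, 3.54, 3.28, 2.88, 2.61 and 0.78, so that both tissues put KI mouse B on top. The correlations rest on 6 mice measured in each of 2 tissues and on few high arrays.

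The same search for the 3 brown markers gave Dnajb3 (0.960), Tfr2 (0.958), Cpxm1 (0.956), Slpi (0.950), Gfi1b (0.940), Slc38a5 (0.940), Cdca8 (0.936), Prkcb (0.935), Clec4d (0.933) and Wfdc21 (0.924). Slpi, a secreted protease inhibitor, was highest in the muscles of KI mouse B (1.19) and WT mouse D (0.46) and was at most -1.99 in the other 4. Gfi1b, a transcription factor of blood cell precursors, was well above background in these 2 muscles alone, at 0.33 and -1.23. Over the muscles alone the 10 genes correlated at 0.940 to 0.981, and over the hearts alone at 0.284 for Cdca8, 0.564 for Tfr2 and 0.779 to 0.977 for the other 8. The heart values include dim signal, since Elovl3 was well above background in 0 hearts and Ucp1 in 1. The muscle values include it too, since Elovl3 was well above background in 2 muscles and Ucp1 in 4. Dnajb3, Gfi1b, Slc38a5 and Clec4d were also dim in some muscles. Ucp1 and Cidea correlated with each other at -0.746 over the hearts and at 0.915 over the muscles.

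In liver only 4 of the 10 members could be tested (Fabp4, Cidec, Elovl3 and Retn). Fabp4 had levels of 2.03, 1.59 and 2.18 in KI mice A, B and C and of 1.22, 1.36 and 1.43 in WT mice D, E and F, so that every KI liver was above every WT liver. The difference was 0.60 ± 0.18 (SE), with an unadjusted p of 0.014 and an adjusted p of 0.39 (limma), which did not pass the threshold. The highest liver, that of KI mouse C, also carried skeletal muscle transcripts, whose part was not tested. Without KI mouse C the difference was 0.47. The groups of 1 of the 4 members were thus without overlap, where those of 19.8% of the 14091 genes tested in liver were, and 0% of genes passed the adjusted threshold, with 1668 at an unadjusted p under 0.05. Genes of macrophages and fibroblasts lay the same way. The mean of 9 macrophage genes was 0.25, 0.34 and 0.29 in KI and -0.14, -0.31 and -0.59 in WT livers, and that of 8 fibroblast genes was 0.60 to 1.14 in KI and 0.15 to 0.26 in WT livers. The mean of 7 endothelial genes overlapped between genotypes, at 1.08, 0.86 and 1.08 in KI and 0.98, 0.90 and 0.71 in WT livers. The part of these cells in the Fabp4 levels was not tested.

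Cidec and Elovl3 varied between livers without regard to genotype. Cidec had -1.78, 0.16 and 0.74 in KI and -1.30, -1.43 and 0.39 in WT livers. Elovl3 had -2.89, -0.93 and 0.70 in KI and -2.74, -1.38 and 0.10 in WT livers, a 12.1-fold range. In both genes the livers of mice C and F, the pair that was 14 months old, were highest and KI mouse B came next. The differences between genotypes were 0.49 ± 0.76 (SE, adjusted p = 0.79) for Cidec and 0.30 ± 1.04 (adjusted p = 0.91) for Elovl3. Without KI mouse C they were -0.03 and -0.57.

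Most of the remaining markers were near background in liver. Adipoq was well above background in 3 of 6 livers, at -5.42 to -4.71, and Plin1, Lep and Ucp1 in none. Cfd was highest in KI mouse C (-2.64), as was Cidea (-2.76), in the liver that carried skeletal muscle transcripts. The part of these transcripts was not tested. Retn had -1.97, -4.97 and -3.45 in KI and -5.81, -3.01 and -1.95 in WT livers, but its second probe had -4.42, -4.82 and -3.89 in the KI livers and -4.96 in that of WT mouse D, and was not well above background in WT mice E and F. The 2 probes thus disagreed on the order of the livers, while in muscle both put WT mouse D highest and WT mouse F lowest.

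In brain Cidea was the only member with a steady signal. It had levels of 1.05, 1.22 and 1.17 in KI and of 1.16, 1.33 and 1.17 in WT brains, a range of 1.21-fold that was narrower than that of all but 9.29% of the genes tested. The difference of -0.07 ± 0.12 (SE) had an adjusted p of 1.00 (limma). Fabp4 had -5.44, -5.57 and -3.73 in KI and -5.24, -5.04 and -5.61 in WT brains. Retn had -3.11, -3.44 and -2.37 in KI and -2.36, -3.57 and -3.08 in WT brains, with the groups overlapping. Plin1 was well above background in 4 brains (-6.77 to -5.56), Ucp1 in that of WT mouse E alone (-5.72), and Lep, Adipoq and the Cidec probe used in none. The brain of KI mouse C, with its hepatocyte transcripts, was highest for Fabp4, and it was the only brain with Cfd (-5.80) and Elovl3 (-4.72) well above background. Without it the genotype difference of Fabp4 was -0.20 in place of 0.39 ± 0.49. None of the 3 members tested passed the threshold, where 0% of 16073 genes did, and none had groups without overlap, where 2.94% of genes did.

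Between liver and brain, Fabp4, measured on all 12 arrays, was higher in liver by 6.74 ± 0.28 (SE, log2, adjusted p = 2.5e-14), and Retn did not pass the threshold (adjusted p = 0.40). Cidec was at least 46.3-fold higher in liver than in brain by the probe used. Its other probe was well above background in the brain of WT mouse E alone, at -3.00, above all livers on that probe (-5.09 to -3.41). Cidea had a mean level of 1.18 in the 6 brains, all of which measured it, while 3 of 6 livers did. No liver group admitted it to the test, so its lower level in liver is also a description without a p-value. Elovl3 had a mean level of -1.19 in the 6 livers, all of which measured it, while 1 of 6 brains did. It entered the test only through liver, so its higher level there is given as a description without a p-value. In all, 84.4% of the genes tested passed the threshold in this comparison, so that a call there sets no member apart.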

How the data were processed

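Each RNA sample had 1 Cy3 array. The authors extracted the deposited intensities with Agilent Feature Extraction 12.0.3.1, and the processed signal used here was corrected for background and for trends within the array, not between arrays. The authors also deposited a score table, which held z-scores of the log2 signal within each array (largest difference 0.005) and served as an alternative. The deposited columns hold no values of the authors' own comparisons.

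Control spots and outlier spots (121 to 347 per array) were left out, spots of 1 probe were averaged as log2 values, and the 75th percentile of the non-control spots (a signal of 312.4 to 2510.4) was subtracted. No spot was saturated, and 49.4% to 68.4% of probes were well above background. The number of arrays limits the precision. A RefSeq gene table (GRCm38.p6) named 50.9% of 55681 probes by accession, and the probe of highest mean stood for a gene. Array coordinates lie on another build and were not used.

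Genes were kept where every array of some group measured them well above background, and tested with limma 3.58.1 (R 4.3.3, two-sided), with Benjamini-Hochberg adjustment over all genes tested and a threshold of 0.05. The fits were tested on simulated data. Genotypes were compared within each tissue over 6 arrays, in the mean of heart and muscle, and between those tissues. Tissues were compared over 24 arrays. A single value could not pass an exact permutation test of 3 against 3, whose smallest p is 0.10. Lower bounds on folds set each dim array at the higher of its own value and the lowest level well above background on it.

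The members and the marker lists were chosen with earlier results of these data known. The members were named, beside Terf2ip, the 10 genes most like the white and the brown markers over heart and muscle (well above background on at least 3 of the 12 arrays), and up to 4 genes of a list with the largest difference. Of the lists of other cell types, those named beside a member are a selection. The numbers of the mice pair arrays across tissues but not genotypes within a tissue, and deviations of 1 mouse correlated between tissues by a median of 0.009 (-0.176 to 0.231). Each liver and muscle set lay on 1 slide, and brain and heart each on 2. In heart the slides followed the age of the mice.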

Additional observations from a re-analysis of the deposited data

How the results depend on the processing

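Each comparison was repeated with quantile normalization, the median of the array, normexp background correction, the deposited score table, the mean of all probes, no filter on dim probes, array weights, each mouse left out, and, where it applied, a fit of all 24 arrays, a slide block, a mouse block, and without the 3 arrays that carried transcripts of another tissue. No member passed the threshold between genotypes in any of these. With the mouse as a replicate block, 0 members were called in each genotype comparison, and 9, 8 and 7 in the tissue comparisons, as without it, and no other call changed. These tissue counts include Lep, which was not well above background in liver, brain or heart. Of the other members counted, Adipoq, Cfd, Plin1 and Elovl3 were admitted to the tests only through tissues where they are high. In liver against brain, no brain group admitted Cidec and no liver group admitted Cidea.

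Over all genes, the median in place of the 75th percentile gave 84 genes past the threshold between the livers, in place of 0, a fit of all 24 arrays gave 2, and leaving out KI mouse C gave 1 gene in heart and leaving out KI mouse A 4 in muscle. Of 394 genotype values of the members, 380 kept their direction. These values cover all members tested in liver, heart and muscle, but only Fabp4 and Cidea in brain. They cover Adipoq, Cfd, Plin1 and Cidec in the mean of heart and muscle. For the genotype difference between heart and muscle they cover Cfd alone. With array weights the liver difference of Retn was -0.88 in place of 0.13. With 1 mouse left out, liver differences ran from -0.98 to 0.95 for Retn, -0.028 to 1.23 for Cidec and -0.57 to 1.23 for Elovl3, that of Fabp4 in brain from -0.20 to 0.72, and that of Retn in heart from -0.13 to 0.79. In muscle they ran from -0.49 to 0.64 for Retn, -0.39 to 0.74 for Cfd and -2.31 to 0.61 for Cidea. The members called with 1 mouse left out were 8 to 10 for heart and muscle against liver and brain, 7 to 9 for heart against muscle, and 6 to 7 for liver against brain.

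Of 360 tissue values, which left out Lep, Plin1 and Retn in liver against brain, 353 kept direction and call. Elovl3 lost its call in heart and muscle against liver and brain with normexp (-0.41 in place of -1.57) and without mice C, E or F, and in heart against muscle without mouse B or D, the muscles where it was measured. Quantile normalization gave Fabp4 a call in heart against muscle (0.56). The causes were not tested.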
